A study of Mus musculus with 14 samples.

Results

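MHC class I antigen presentation was described here through 10 genes: the heavy chains H2-K1 and H2-D1, the light chain B2m, the peptide transporter subunits Tap1 and Tap2, the loading factor Tapbp, the immunoproteasome subunits Psmb8, Psmb9 and Psmb10, and the transactivator Nlrc5. They were taken by gene symbol from the 30503 genes of the deposited count table, where each of the 10 symbols matched 1 Ensembl identifier. The libraries were bulk RNA-seq of 14 mouse clones in culture, and every clone descended from 1 tdTomato+ cell of the femur marrow. Fgfr3-creER; R26R(tdTomato/+) cells isolated at P23 gave 5 clones (Fgfr3-WT). Fgfr3-creER; Trp53fl/fl; R26R(tdTomato/+) cells gave 5 clones isolated at P28 and 4 clones isolated at 4 months of age (P4M), both named Fgfr3-p53 cKO. All mice, controls included, carried the tamoxifen-inducible cre under Fgfr3 and the tdTomato reporter, and all received tamoxifen at P21. By the labels clones were at passage 8, or at passage 6 to 8 in the 4-month group, while the methods give the wider range for both cKO groups, so a clone stands for 1 founder cell after long culture and not for a tissue. The mice were kept on a mixed genetic background. The labels do not say which mouse a clone came from, and the study gives its sample numbers as clones in one place and as mice in another, so p-values here measure the spread between clones.

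Nearly all nucleated cells carry MHC class I on their surface. Proteins are cut by the proteasome, and under interferon the catalytic subunits Psmb5, Psmb6 and Psmb7 are replaced by Psmb8, Psmb9 and Psmb10. Tap1 and Tap2 form the pump that carries the peptides into the endoplasmic reticulum, where tapasin, the product of Tapbp, holds the empty heavy chain to the pump until a peptide binds. B2m pairs with every classical heavy chain and is needed for its transport to the surface, where CD8 T cells read the peptide and NK cells sense the level of class I. Nlrc5 has no DNA-binding domain of its own and acts with RFX, CREB/ATF and NFY factors on the promoters of class I genes.

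In Fgfr3-p53 cKO (P28) clones the transcripts of both peptide transporter subunits were lower than in Fgfr3-WT clones, with a log2 fold change of -1.89 for Tap1 and -1.70 for Tap2, in a comparison where 38.9% of all genes tested were called. In Fgfr3-p53 cKO (P4M) clones, where 45.9% were called, Tapbp was lower (-0.87) and Psmb8 was higher (2.59). Over 14 fits that each left out 1 clone, the Tap1 call was lost in 5, Tap2 in 0, Tapbp in 6 and Psmb8 in 5. Without P4M replicate 3, Tapbp (edgeR adjusted p = 0.0750) and Psmb8 (0.186) did not pass, nor did Tapbp without P4M replicate 2 (0.0808). The other members did not pass the test in these comparisons, and none of the 10 passed it between the P28 and P4M cKO groups. The members varied more from clone to clone than the typical gene, and replicate 3 of the P4M group held the highest value of 8 of the 10 in its group.

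Of the 10 members 7 lie on chromosome 17, within the mouse H2 region, by GENCODE M21 on GRCm38, the sequence of mm10. H2-K1 spans chr17:33996017-34000347 and H2-D1 chr17:35262730-35267499. Psmb9 (chr17:34181987-34187764), Tap1 (chr17:34187553-34197225), Psmb8 (chr17:34197721-34201454) and Tap2 (chr17:34203527-34216321) are neighbours, and Tapbp (chr17:33915899-33929292) lies apart from them. B2m spans chr2:122147686-122153083, and Psmb10 (chr8:105935735-105938444) and Nlrc5 (chr8:94434356-94527272) lie on chromosome 8. The RefSeq promoter table for GRCm38.p6 held 8 of the 10 members, all but Tap2 and Nlrc5, and the 250 bases before each start site were searched on both strands. The motifs were TGACG, the half-site of CREB and ATF factors, CCAAT, the site of NFY, which reads ATTGG on the other strand, GGNNTTNCC, a core of kappa-B sites, and 2 spacings of the core that interferon regulatory factors bind, GAAANNGAA and GAANNGAAA. Stretches of 2 promoters are shown because the subunits of the class I molecule carried these motifs in a like arrangement. Both lie outside every exon of GENCODE M21, and capitals mark the matches. The first is chr17:34000354-34000478 on the minus strand and the second chr2:122147543-122147643 on the plus strand.
H2-K1: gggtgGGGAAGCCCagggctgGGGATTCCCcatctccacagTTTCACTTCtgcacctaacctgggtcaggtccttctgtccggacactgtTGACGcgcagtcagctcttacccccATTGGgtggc
B2m: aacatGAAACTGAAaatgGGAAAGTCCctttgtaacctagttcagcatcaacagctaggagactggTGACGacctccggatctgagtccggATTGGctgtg
The H2-K1 stretch held 2 kappa-B cores, then GAANNGAAA read on the other strand, then TGACG and ATTGG. The B2m stretch held GAAANNGAA, 1 kappa-B core, then TGACG and ATTGG. The matching H2-D1 stretch, which lies within an annotated exon and is not printed, was equal to that of H2-K1 at 114 of 125 bases (91.2%). In all 3 genes the first letters of TGACG and ATTGG stood 25 bases apart, an arrangement chosen after the promoters were seen. It occurred in 30 of 32851 promoters of the table (0.0913%), from 26 genes that also included H2-M3, and in none of the promoters of Tap1, Tapbp, Psmb8, Psmb9 and Psmb10. Counted singly, TGACG was found in 5 of the 8 members (17.8% of all promoters), CCAAT in 6 (33.8%), the kappa-B core in 3 (13.5%), GAAANNGAA in 1 (7.13%) and GAANNGAAA in 2 (6.31%). Tap1 and Psmb9 share a stretch read on opposite strands, so their TGACG and CCAAT matches are the same sites counted for both genes. These matches are a description of letters, and no binding was measured.

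Libraries held 25688946 to 38958693 counts in the Fgfr3-WT group, 37606033 to 48648618 in the P28 cKO group and 43757832 to 52857424 in the P4M cKO group. Levels are given as CPM, the counts scaled to a common library size with TMM factors, and a library with 0 counts allows up to 3 counts, or 0.0564 to 0.121 CPM. Trp53, the targeted gene, was at 49.9 to 68.1 CPM in Fgfr3-WT clones and at 1.72 to 2.84 CPM in all 9 cKO clones. Genotype, library submission, age at isolation, time since tamoxifen and the time spent in culture changed together between Fgfr3-WT and cKO clones. These cannot be told apart. The P28 and P4M cKO groups also differed in age at isolation and time since tamoxifen. Summed over 14 skeletal and stromal markers, clones held 2634 to 95659 CPM. Of these markers 3 were higher and 4 lower over both cKO groups, where 48.8% of all genes tested were called, a share near theirs. The cartilage genes Col2a1 (-5.68, edgeR adjusted p = 0.000425) and Sox9 (-2.78, adjusted p = 0.000185) were lower. The osteoblast factor Runx2 (1.53, adjusted p = 0.000386) and the stromal receptor Lepr (7.87, adjusted p = 0.000849) were higher, so these named genes moved with the comparison. The summed level of 15 haematopoietic markers was 17.8 to 149 CPM in Fgfr3-WT, 4.04 to 22.7 in P28 cKO and 5.47 to 9.24 in P4M cKO clones, with Lyz2 and Cd68 its main parts, while Cd52 and Cd3e were at 0 in all 14 clones. Of the 4 haematopoietic markers tested, 2 were lower over both cKO groups (Cd68 and Lyz2) and 1 was higher, Csf1r (1.58, edgeR adjusted p = 0.0383). The share over all genes there was again 48.8%. The Csf1r call was lost without Fgfr3-WT replicate 1 (1.47, adjusted p = 0.0779), among other settings. Endothelial markers summed to 0.0809 to 0.739 CPM in Fgfr3-WT, 0.410 to 4.49 in P28 cKO and 2.75 to 12.8 in P4M cKO clones. Cdh5 and Cldn5 were at 0, and Kdr, the only 1 tested, was higher over both cKO groups (4.59, adjusted p = 0.00371). For the class I genes themselves, Fgfr3-WT replicate 1 (low) and P4M replicate 3 (high) stood apart from their groups, so values without either are given beside the members' changes that they moved most. The part of the marker differences in the results on class I genes was not tested, and in bulk RNA fewer cells of a type and less RNA per cell cannot be told apart.

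The heavy chains and B2m are the subunits of the molecule itself. H2-K1 was at 3.87, 155, 136, 139 and 71.2 CPM in Fgfr3-WT clones 1 to 5, at 26.8, 118, 50.9, 149.7 and 53.2 in P28 cKO clones 1 to 5 and at 236, 98.2, 793 and 144 in P4M cKO clones 1 to 4. Replicate 1 of Fgfr3-WT lay far below the rest of the series, replicate 3 of P4M lay far above it, and the groups overlapped. H2-D1 was at 296, 589, 353, 421 and 407 CPM in Fgfr3-WT, at 61.1, 73.4, 87.0, 433 and 229 in P28 cKO and at 475, 265, 1328 and 585 in P4M cKO clones. Replicates 1, 2 and 3 of the P28 group were below every other clone, and replicate 4 was within the Fgfr3-WT range. B2m was at 76.7, 772, 306, 489 and 626 CPM in Fgfr3-WT, at 429.6, 327, 331, 501 and 361 in P28 cKO and at 523, 470.1, 1405 and 559.9 in P4M cKO clones. Again replicate 1 of Fgfr3-WT was the lowest clone and replicate 3 of P4M the highest, while H2-D1 in that Fgfr3-WT clone, at 296 CPM, was next to the 353 CPM of replicate 3.

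None of these genes passed the test in any comparison (edgeR, Benjamini-Hochberg adjustment over all genes). For H2-D1 the log2 fold change of P28 cKO against Fgfr3-WT was -1.23 (95% interval -2.41 to -0.04, adjusted p = 0.0928), and that of P4M against P28 was 1.91 (0.66 to 3.16, adjusted p = 0.0609). Without replicate 4 of P28 both passed, at -1.89 (adjusted p = 0.0128) and 2.57 (adjusted p = 0.0227), and without replicate 3 of P4M the latter was 1.32 (adjusted p = 0.175). For H2-K1 the change was 1.65 (-0.13 to 3.44, adjusted p = 0.118) in P4M cKO against Fgfr3-WT and -0.34 (-2.01 to 1.34, adjusted p = 0.759) in P28 cKO. The former was 0.67 without P4M replicate 3 and 0.34 without Fgfr3-WT replicate 1 as well, and the latter was -0.68 without Fgfr3-WT replicate 1. For B2m the changes were 0.70 (-0.37 to 1.78) and -0.22 (-1.24 to 0.80), with 0.20 for the former without P4M replicate 3 and -0.52 for the latter without Fgfr3-WT replicate 1. The ratio of the heavy chains also differed between clones. In TPM, which corrects for transcript length, H2-K1 was 1.96% of H2-D1 in replicate 1 of Fgfr3-WT and 25.2 to 57.4% in the other 4, 33 to 229.8% in P28 cKO and 36.8 to 87.3% in P4M cKO clones. H2-K1 and H2-D1 belong to a family of near copies, and their counts are uncertain for that reason. Of the 50-base stretches of their GENCODE transcripts, 9.63% for H2-K1 and 12.8% for H2-D1 occurred letter for letter in transcripts of other genes, against 0% for B2m. The H2 haplotype of the clones is not given in the sources used here, and its part in the counts was not tested.

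**Figure D1:**
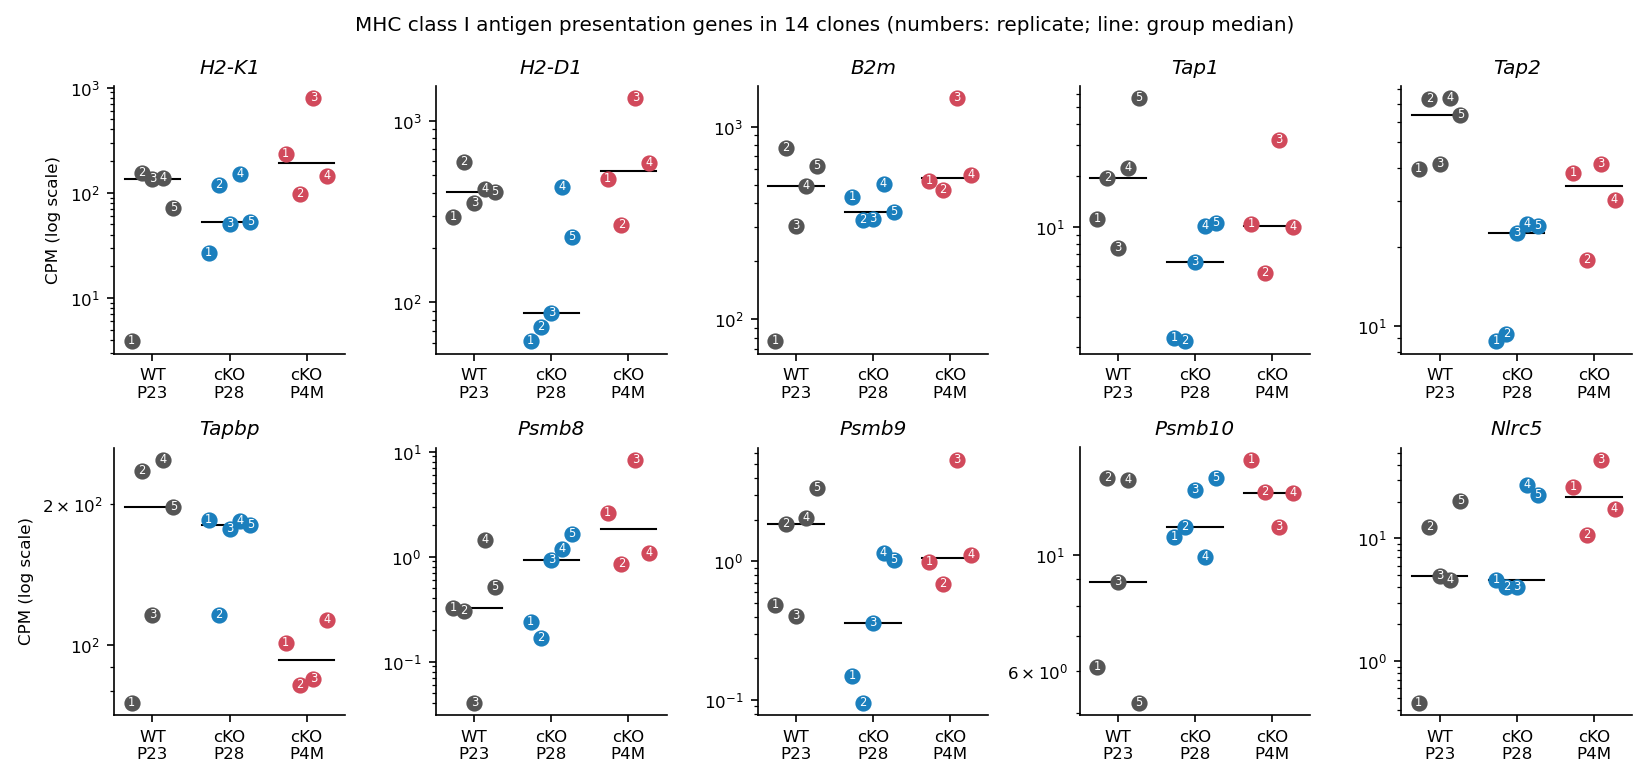
CPM (log scale) of each of the 10 members in 14 clones, by group; numbers inside the points are replicates and lines are group medians. Replicate 1 of Fgfr3-WT was lowest for H2-K1 (3.87 CPM), B2m (76.7 CPM) and Nlrc5 (0.456 CPM), and replicate 3 of P4M cKO was highest for H2-K1 (793 CPM), H2-D1 (1328 CPM) and B2m (1405 CPM).

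Both subunits of the peptide transporter were lower in P28 cKO clones. Tap2 was at 39.5, 72.8, 41.2, 73.6 and 63.6 CPM in Fgfr3-WT, at 8.77, 9.37, 22.6, 24.5 and 24.1 in P28 cKO and at 38.3, 17.9, 41.5 and 30.2 in P4M cKO clones. The P28 cKO clones all lay below the Fgfr3-WT clones, a separation in either direction that 24.5% of all genes tested had, whereas P4M replicate 3 reached into their range. The log2 fold change was -1.70 in P28 cKO (95% interval -2.45 to -0.95, adjusted p = 0.00215), -0.86 in P4M cKO (-1.65 to -0.08, adjusted p = 0.0683) and -1.28 over both cKO groups (-1.91 to -0.65, adjusted p = 0.00285). Tap1, its partner, was at 11.2, 19.5, 7.56, 22.1 and 56.6 CPM in Fgfr3-WT, at 2.26, 2.17, 6.26, 10.2 and 10.6 in P28 cKO and at 10.4, 5.46, 32.1 and 9.99 in P4M cKO clones. The groups overlapped, and Fgfr3-WT replicate 5 stood above the rest. Tap1 fell in P28 cKO clones (-1.89, -3.31 to -0.47, adjusted p = 0.0360), while the value was -0.69 in P4M cKO (-2.16 to 0.78, adjusted p = 0.432; -1.43 without replicate 3) and -1.29 over both groups (-2.47 to -0.11, adjusted p = 0.0670). The Tap1 call was lost without Fgfr3-WT replicate 4 (adjusted p = 0.0527) or 5 (0.115) and without P28 replicate 1 (0.0749), 2 (0.0754) or 3 (0.0663), and also without a filter (0.0648) and by limma on TPM (-1.28, 0.0675). The Tap2 call in P28 cKO was kept in each of the 14 fits that left out a clone and under 8 other alternatives, with log2 fold changes of -1.86 to -1.42. Over both groups, Tap1 passed without P4M replicate 3 (-1.66, adjusted p = 0.0210). The TPM of Tap1 was 19.7 to 93.1% of that of Tap2 in Fgfr3-WT, 22.7 to 46.1% in P28 cKO and 29.0 to 74.0% in P4M cKO clones. Tap2 shares 3148 bases with Gm15821 (0.0227 to 0.488 CPM) and 1923 with Gm20496 (0 CPM), both on the opposite strand. Of its 50-base stretches 11.6% occurred in other genes, and the part of this in its counts was not tested.

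Tapbp, the gene of tapasin, moved in the other cKO group. It was at 75.5, 235, 116, 248 and 197 CPM in Fgfr3-WT, at 185, 116, 177, 184 and 180.4 in P28 cKO and at 101, 82.3, 85.0 and 113 in P4M cKO clones. All 4 P4M clones were below all 5 P28 clones, in a comparison without overlap for 19.0% of all genes, but replicate 1 of Fgfr3-WT was lower still. Tapbp was lower in P4M cKO than in Fgfr3-WT (-0.87, 95% interval -1.51 to -0.22, adjusted p = 0.0301). The P28 value was -0.05 (-0.64 to 0.55, adjusted p = 0.906), or -0.26 without Fgfr3-WT replicate 1, and P4M against P28 gave -0.82 (-1.46 to -0.18, adjusted p = 0.105). The call in P4M cKO was lost without Fgfr3-WT replicate 2, 4 or 5 or P4M replicate 1, 2 or 3, with adjusted p of 0.0536 to 0.0808, without a filter (0.0552), with only these groups in the fit (0.0644) and by limma on TPM (0.0630). Tapbp contains Zbtb22 on the same strand, at 27.8 to 54.3 CPM, and 23.2% of its 50-base stretches occurred in other genes, mostly in the antisense gene Gm19412.

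Of the immunoproteasome genes, Psmb8 and Psmb9 were at or below 8.39 CPM in all 14 clones. Psmb8 was at 0.325, 0.306, 0.0404, 1.45 and 0.514 CPM in Fgfr3-WT, at 0.236, 0.167, 0.934, 1.19 and 1.64 in P28 cKO and at 2.58, 0.842, 8.39 and 1.09 in P4M cKO clones. The value of 0.0404 CPM is 1 count and lies under the limit of 3 counts. Psmb8 passed the test in P4M cKO against Fgfr3-WT (2.59, 95% interval 0.61 to 4.57, adjusted p = 0.0341), with a P28 value of 0.64 (-1.21 to 2.49, adjusted p = 0.586). The P4M value fell to 1.49 (adjusted p = 0.186) without P4M replicate 3, and the call was also lost without Fgfr3-WT replicate 1 (adjusted p = 0.0619), 2 (0.0709), 3 (0.0560) or 5 (0.0586). Psmb9 was at 0.488, 1.87, 0.404, 2.05 and 3.40 CPM in Fgfr3-WT, at 0.150, 0.0956, 0.358, 1.15 and 1.02 in P28 cKO and at 0.992, 0.682, 5.41 and 1.11 in P4M cKO clones. Its values were -1.56 in P28 cKO (-3.34 to 0.22, adjusted p = 0.151) and 0.32 in P4M cKO (-1.50 to 2.14, adjusted p = 0.780), the latter turning to -0.81 without P4M replicate 3 and falling to 0.09 without Fgfr3-WT replicate 1. Psmb9 and Tap1 share 212 bases on opposite strands, and the library kit did not mark strand. Psmb8 shares 2139 bases with Gm20496 on the opposite strand, and 11.9% of its 50-base stretches occurred in other genes. Psmb10 was the steadiest member of the family, at 5.22 to 14 CPM in Fgfr3-WT (median 8.89), 9.91 to 14 in P28 cKO (median 11.3) and 11.3 to 15.2 in P4M cKO clones. In P28 and P4M cKO it gave 0.30 (-0.26 to 0.87, adjusted p = 0.383) and 0.46 (-0.14 to 1.05, adjusted p = 0.194), and the former was 0.15 without Fgfr3-WT replicate 1. By limma on TPM, Psmb10 was called higher in P28 cKO (0.66, adjusted p = 0.0144), in P4M cKO (0.74, adjusted p = 0.00953) and over both (0.70, adjusted p = 0.00396), where that scale also moved the median of all genes up.

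The subunits that the immunoproteasome replaces were set beside them in TPM. Psmb8 was 0.0499 to 1.12% of Psmb5 in Fgfr3-WT clones, 0.179 to 0.940% in P28 cKO and 0.472 to 1.31% in P4M clones 1, 2 and 4, and 5.32% in P4M replicate 3. Psmb9 was 0.235 to 2.06% of Psmb6 in Fgfr3-WT, 0.0350 to 0.494% in P28 cKO and 0.370 to 2.52% in P4M cKO clones. Psmb10 reached 7.06 to 29.0% of Psmb7 in Fgfr3-WT, 11.1 to 16.0% in P28 cKO and 13.3 to 16.7% in P4M cKO clones. Thus in every clone the constitutive subunit was the more abundant transcript of each pair. The denominators themselves were higher in cKO clones over both groups: Psmb5 by 0.72 (adjusted p = 0.000886), Psmb6 by 0.60 (adjusted p = 0.000250) and Psmb7 by 0.79 (adjusted p = 0.00426) on the log2 scale. For none of these 3 genes did the cKO clones overlap the Fgfr3-WT clones in CPM, which held for 18.1% of all genes tested.

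**Figure D2:**
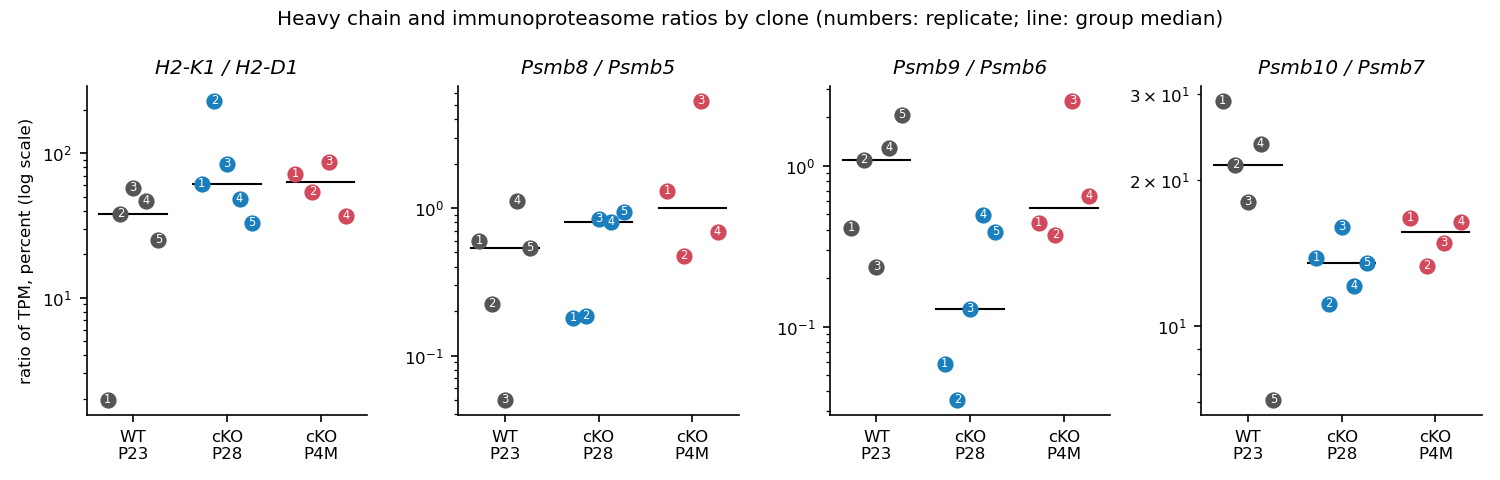
Ratios of TPM in percent (log scale) by clone and group, for H2-K1 over H2-D1 and for each immunoproteasome subunit over the constitutive subunit it replaces; numbers are replicates and lines are group medians. P4M replicate 3 had 5.32% Psmb8 over Psmb5, against at most 1.31% in the other clones, and Fgfr3-WT replicate 1 had 1.96% H2-K1 over H2-D1.

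Nlrc5, the transactivator, was at 0.456, 12.4, 4.97, 4.58 and 20.1 CPM in Fgfr3-WT, at 4.56, 4.04, 4.03, 27.5 and 22.6 in P28 cKO and at 26.2, 10.6, 43.9 and 17.4 in P4M cKO clones. P28 replicates 4 and 5 stood apart from replicates 1 to 3, and the groups overlapped. The log2 fold change was 0.56 in P28 cKO (95% interval -1.18 to 2.31, adjusted p = 0.612) and 1.53 in P4M cKO (-0.32 to 3.38, adjusted p = 0.162), with 0.24 for the former without Fgfr3-WT replicate 1 and 1.09 for the latter without P4M replicate 3. The clone lowest in Nlrc5, Fgfr3-WT replicate 1, was also the lowest in H2-K1 and B2m. The clone highest in it, P4M replicate 3, was the highest in H2-K1, H2-D1, B2m, Psmb8 and Psmb9. Other values did not follow this order. P28 replicate 5, with Nlrc5 at 22.6 CPM, had H2-D1 at 229 CPM, below every Fgfr3-WT clone. H2-D1 in Fgfr3-WT replicate 1 was at 296 CPM, above P28 replicates 1, 2, 3 and 5. Whether class I genes followed Nlrc5 was not tested.

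Counted over the 10 members, 0 were higher and 2 lower in P28 cKO against Fgfr3-WT, where 38.9% of the 17358 genes tested were called. In P4M cKO against Fgfr3-WT 1 was higher and 1 lower, with 45.9% of all genes called. Over both cKO groups 0 were higher and 1 lower, with 48.8% of all genes called. Between P4M and P28 cKO clones edgeR called 0 members, with 7.22% of all genes called. In that comparison 6 of the 10 had an unadjusted edgeR p under 0.05, as had 4474 of the 17358 genes tested. DESeq2 called 1 member (H2-D1) and 15.0% of all genes. With limma on TPM 2 members (H2-D1 and Tapbp) and 9.04% of all genes were called. The median log2 fold change of the members was -0.28, 0.57 and 1.08 for P28 minus Fgfr3-WT, P4M minus Fgfr3-WT and P4M minus P28, beside -0.02, -0.06 and -0.01 over all genes tested. Without Fgfr3-WT replicate 1 and P4M replicate 3 these medians were -0.60, -0.05 and 0.61. Tap1, Tap2 and Tapbp were then called lower over both cKO groups, with 49.4% of all genes called. These clones were chosen for their low and high member values. Leaving them out therefore tends to lower the changes against Fgfr3-WT by construction, and no conclusion is drawn from it. The comparisons with Fgfr3-WT share those clones, and no test was run on the list as a whole.

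**Figure D3:**
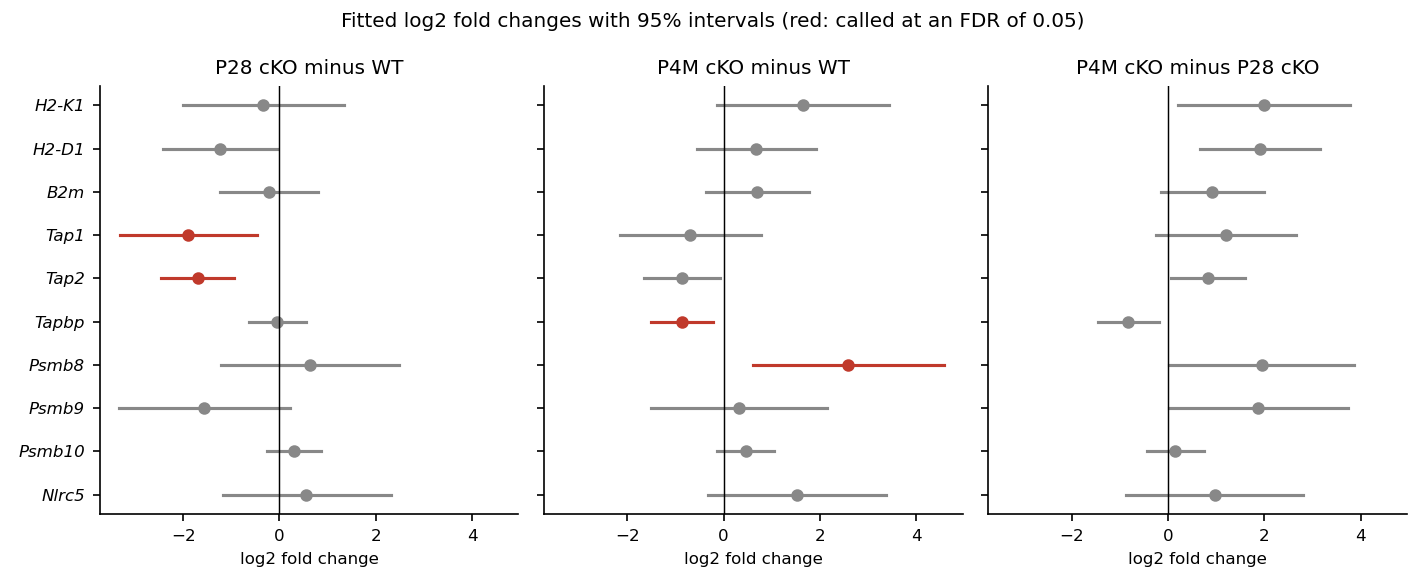
Fitted log2 fold changes (points) with 95% intervals (lines) of the 10 members in 3 comparisons, with members called at an FDR of 0.05 in red. Tap1 (-1.89) and Tap2 (-1.70) were called in P28 cKO, Tapbp (-0.87) and Psmb8 (2.59) in P4M cKO, and none between the cKO groups.

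The wide intervals follow from the spread between clones of a group. The median SD of log2 CPM over the members was 1.20 in Fgfr3-WT, 1.06 in P28 cKO and 0.92 in P4M cKO clones, beside 0.51, 0.33 and 0.31 over all genes tested. Of the 10 members, 8, 7 and 8 lay above the median of all genes in these groups. The SD was lowest for H2-D1 in Fgfr3-WT (0.37) and for Psmb10 in both cKO groups (0.21 and 0.18). It was highest for H2-K1 in Fgfr3-WT (2.25), Nlrc5 in P28 cKO (1.40) and Psmb8 in P4M cKO clones (1.46). The highest and lowest values fell on a few clones. P4M replicate 3 was the highest of its group for 8 of 10 members, against 30.7% of all genes, and P4M replicate 2 was the lowest for 9, against 27.2%. Fgfr3-WT replicate 1 was the lowest of its group for 6 members, against 29.6% of all genes. P28 replicates 4 and 5 were both above replicates 1, 2 and 3 for 6 members (H2-D1, Tap1, Tap2, Psmb8, Psmb9 and Nlrc5), against 24.2% of all genes. The same 2 clones also differed from replicates 1 to 3 in stromal markers, with Prrx1 at 61.4 and 4.53 CPM against 561 to 789 and Lepr at 12.7 and 12.4 CPM against 0.914 to 6.52, and the part of this was not tested. These patterns were noticed in the same values and were given no test.

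Of 38 genes of the same H2 region outside antigen presentation, the median SD of log2 CPM was 0.29 in Fgfr3-WT, 0.20 in P28 cKO and 0.15 in P4M cKO clones, and 2, 0 and 0 of them lay above the members' median SD. Their median log2 CPM relative to the Fgfr3-WT mean was -0.19 to 0.18 in Fgfr3-WT clones, 0.15 to 0.44 in P28 cKO and 0.15 to 0.27 in P4M cKO clones. The median of the 10 members was -0.89 to 0.58, -0.83 to 0.19 and -0.10 to 1.86 in the same groups. In P4M replicate 3 it was 1.86 for the members and 0.15 for the neighbours. In Fgfr3-WT replicate 1 it was -0.89 and 0.03. Among all other genes tested, those with the profile nearest to the members' median across the 14 clones were Glmp, Ccdc22, Rbm3, Nkrf and Csrnp1, with a mean absolute difference of 0.35 to 0.37 on the log2 scale. Of the members, B2m was nearest to it (0.40, with 23 genes nearer), and Psmb8 was farthest (1.26, with 13165 of 17358 genes nearer). For Tapbp, Psmb10, H2-D1 and Psmb9 2127 to 7932 genes were nearer, and for H2-K1, Tap2, Tap1 and Nlrc5 11279 to 13000. The median thus does not stand for most members, and genes near it need not follow them.

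**Figure D4:**
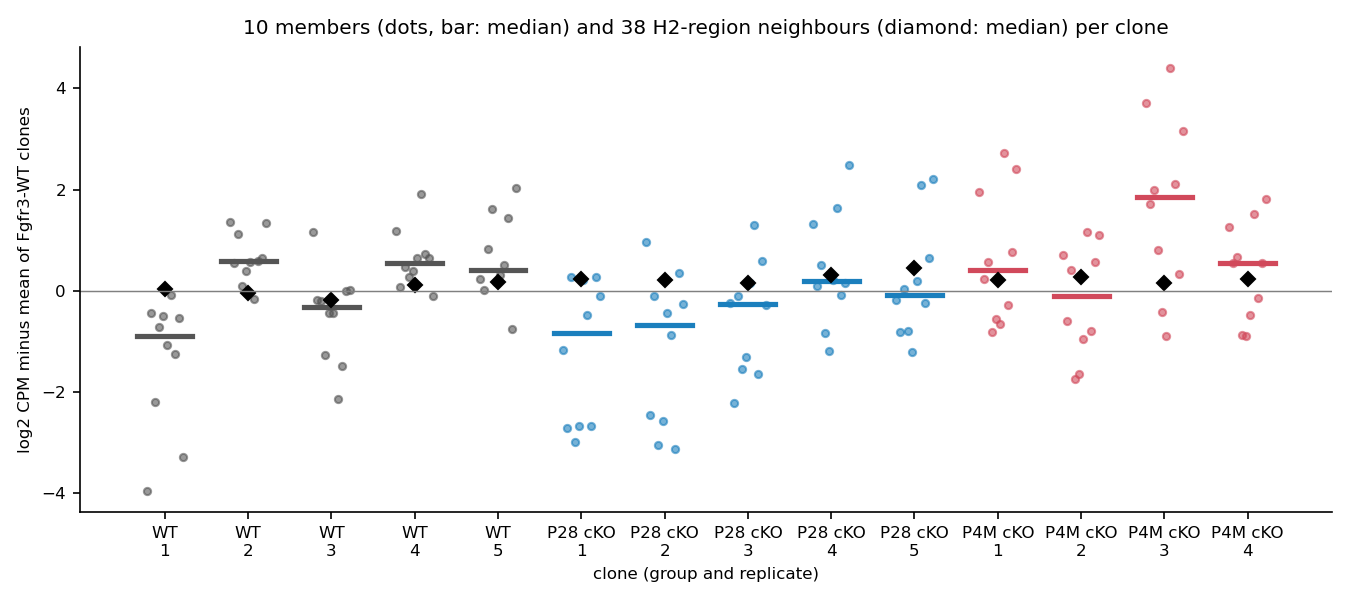
Log2 CPM of the 10 members (dots, with the median as a bar) relative to the mean of the Fgfr3-WT clones, and the median of 38 neighbours in the H2 region (black diamonds), in each of 14 clones. The members' median ranged from -0.89 in Fgfr3-WT replicate 1 to 1.86 in P4M replicate 3, while that of the neighbours stayed between -0.19 and 0.44.

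Compared per length, B2m was the most abundant member, with a median of 926 TPM in Fgfr3-WT, 1002 in P28 cKO and 1284 in P4M cKO clones. H2-D1 followed at 281 TPM in Fgfr3-WT and 435 in P4M cKO, and it was at 81.9 in P28 cKO, where Tapbp was at 131 and the ranges overlapped. H2-K1 and Tapbp came next in Fgfr3-WT (131 and 130.0 TPM), and their ranges overlapped. Tap2 (32.6, 14.4 and 18.5 TPM in the 3 groups) and Psmb10 (21.1, 32.8 and 37.4) were in the middle, with Psmb10 above Tap2 without overlap in both cKO groups. Tap1 (9.70, 4.18 and 5.79), Nlrc5 (1.86, 3.03 and 8.63), Psmb9 (2.11, 0.520 and 1.64) and Psmb8 (0.670, 2.25 and 2.94) closed the order, with overlapping ranges between neighbours. B2m was 73.0 to 359% of the summed TPM of H2-K1 and H2-D1 in Fgfr3-WT, 229 to 1267% in P28 cKO and 166 to 334% in P4M cKO clones.

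The genes that feed and control this pathway were described by lists, with both cKO groups averaged and set against Fgfr3-WT, a comparison in which 48.8% of all genes were called (4014 higher and 4453 lower of 17358). Of the 14 genes of the constitutive 20S proteasome, which cuts most cytosolic proteins, 10 were higher and 0 lower, with a median of 0.53 beside -0.05 over all genes. Without Fgfr3-WT replicate 1 and P4M replicate 3 these counts were 7 and 1, with 49.4% of all genes called. Of 7 proteasome activators and assembly factors 2 were higher and 0 lower: Psme1 (0.67, adjusted p = 0.00624), a subunit of the interferon-inducible PA28 cap, and Psme4 (0.58, adjusted p = 0.00142). Psme2, the partner of Psme1, gave 0.35 (adjusted p = 0.0805).

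Of 11 genes of peptide trimming and loading 4 were higher and 5 lower, with a median of -0.51. Tapbpl, a relative of tapasin that edits peptides outside the loading complex, was at 9.69 to 32.2 CPM in Fgfr3-WT and 5.05 to 8.02 in all 9 cKO clones, without overlap (-1.74, adjusted p = 4.68e-05). Erap1, the aminopeptidase that trims peptides in the endoplasmic reticulum, was lower by the edgeR test (-0.85, adjusted p = 0.00927) but not by limma on TPM (-0.52, adjusted p = 0.0768). Lnpep, an aminopeptidase of endosomes, was also lower (-0.84, adjusted p = 0.000343). The cytosolic peptidases Lap3 (1.07, adjusted p = 1.07e-05) and Tpp2 (0.46, adjusted p = 0.0145) were higher, the latter not without the 2 clones that stand apart (0.35, adjusted p = 0.0516). The loading chaperone Calr gave -0.69 (adjusted p = 0.116), and without Fgfr3-WT replicate 1 it was lower (-0.94, adjusted p = 0.0217).

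Of 20 other class I and class I-like chains 13 were tested, and 2 were higher and 4 lower. H2-T23, the Qa-1 chain that presents to NK receptors, was at 16.0, 85.8, 51.8, 124 and 127 CPM in Fgfr3-WT and at 4.15 to 34.0 in cKO clones (-2.16, adjusted p = 0.00217). H2-T10 was at 3.84 to 10.5 CPM in Fgfr3-WT, 0.0956 to 0.342 in P28 cKO and 0.50 to 3.36 in P4M cKO clones (-3.55, adjusted p = 6.48e-05). Hfe, the class I-like regulator of iron uptake, was at 13.0 to 95.2 CPM in Fgfr3-WT and 4.61 to 10.4 in cKO clones (-2.68, adjusted p = 0.000155). Cd1d1, which presents lipids to NKT cells, was at 0 to 0.825 CPM in Fgfr3-WT and 1.92 to 13.8 in cKO clones (4.47, adjusted p = 0.00227). H2-Q4 was called higher (2.44, adjusted p = 0.0485), but its highest value, 145 CPM, was that of P4M replicate 3, and it lost the call without that clone (1.72, adjusted p = 0.113) and without any 1 of the 5 Fgfr3-WT clones, P28 replicate 3, 4 or 5 or P4M replicate 1 or 4 (adjusted p of 0.0502 to 0.0977). H2-Q and H2-T genes are near copies of each other, and their counts are uncertain.

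Of 15 genes in the transcriptional control of class I 5 were higher and 2 lower. The NFY subunits moved apart, with Nfyc at 12.8 to 23.4 CPM in Fgfr3-WT and 39.7 to 62.8 in cKO clones (1.64, adjusted p = 8.54e-06) and Nfyb at 16.7 to 43.2 and 14.3 to 20.7 CPM (-0.84, adjusted p = 0.00197). Atf1, a factor that binds TGACG, was higher (0.75, adjusted p = 0.00215). Rfx5, a DNA-binding subunit of RFX, gave -0.49 (adjusted p = 0.0930) over both groups and was lower in P4M cKO against Fgfr3-WT (-0.93, adjusted p = 0.0173), but not without P4M replicate 2 (-0.84, adjusted p = 0.0532) or by limma on TPM (-0.65, adjusted p = 0.0859). Irf1, an interferon-induced activator of these promoters, gave 0.25 (adjusted p = 0.267). Of 11 interferon receptors and signalling genes 1 was higher, Jak2 (0.55, adjusted p = 0.0476), and 1 lower, Stat2 (-1.07, adjusted p = 0.0133). The Jak2 call was lost without Fgfr3-WT replicate 2, 3, 4 or 5, P28 replicate 1, 4 or 5 or P4M replicate 1, 2 or 4, with adjusted p of 0.0515 to 0.117, and the Stat2 call without Fgfr3-WT replicate 4 (adjusted p = 0.0587).

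**Figure D5:**
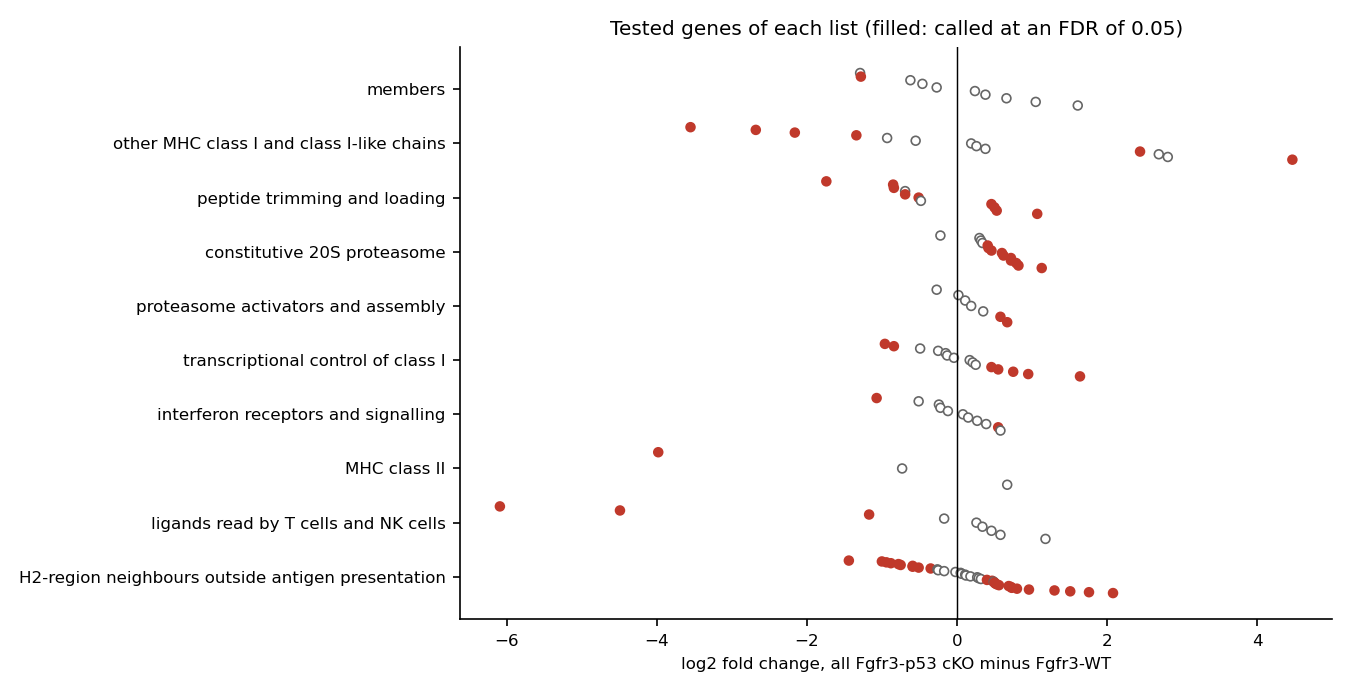
Log2 fold change of both cKO groups against Fgfr3-WT for each tested gene of the 10 members and of 9 related lists, filled where called at an FDR of 0.05; H2-DMb2, at 0 in all cKO clones, is left out. The constitutive 20S proteasome lay mostly to the right (10 of 14 called higher), while 1 of the 10 members was called.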

How the data were processed

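Cultured clones were profiled by RNA-seq: 5 Fgfr3-WT (P23), 5 Fgfr3-p53 cKO (P28) and 4 Fgfr3-p53 cKO (P4M). Per the labels and the study's methods, RNA with a high integrity number was amplified with the SMART-Seq kit, which does not mark strand, single-end reads were aligned to mm10 with TopHat and Bowtie2, and unambiguously mapped reads were counted with HTSeq. The deposited raw counts of 30503 genes were not normalized. The authors' TPM table scales reads by transcript length and depth, and the program behind it is not given in the sources used here. Tables of size-factor-normalized counts, regularized log values, FPKM and expected counts were left aside.

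The count test used edgeR 4.0.16 in R 4.3.3. The low-count filter filterByExpr retained 17358 genes, among them all 10 members. Libraries were scaled by TMM, and a quasi-likelihood model of the 3 group means was fitted robustly to all 14 clones. P values were adjusted by Benjamini-Hochberg over all genes tested, with calls at an FDR of 0.05. Both cKO groups were set against Fgfr3-WT as the mean of their 2 group means. Each library submission held 1 genotype, so no batch term could be fitted. CPM were computed from the counts, with a prior count of 2 for log2 values. The floor of 3 counts covers counting error only. Steps were tested on simulated data. Alternatives were DESeq2 1.42.0, RLE scaling, no scaling, no filter, at least 10 counts in every clone, only the groups compared, a call rule that also required a log2 fold change of 1 or more in size, limma 3.58.1 on log2(TPM + 1), and leaving out each clone. Leaving out 2 clones together, 1 of the 2 interferon cores and the motif spacing were chosen after seeing the data. Tables were made in Python 3.11.15.

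The members and gene lists were chosen with earlier results of these data known. Named genes were the members, Trp53, their direct counterparts, and from every other list up to 2 higher and 2 lower genes with the lowest adjusted p in both cKO groups against Fgfr3-WT. Of these, 1 gene is not reported here. Nearest profiles had the smallest mean absolute difference from the members' median. Replicate numbers are running numbers within a group. Promoter sequences came from RefSeq (GRCm38.p6), and gene positions and transcripts from GENCODE M21.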

Additional observations from a re-analysis of the deposited data

Results flagged for a closer look

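In each group of clones the highest and lowest value of each member was set against the gap to its nearest neighbour. Of the 30 groups examined, 3 held a clone that stood apart, under a nominal rate of about 1 in 20. The flags for B2m and Psmb9 fell on the same clone, and the share over all genes was not computed, so no excess is claimed. By this rule Fgfr3-WT replicate 1, left out elsewhere, was not flagged for any member. B2m was at 1405 CPM in P4M cKO replicate 3, with 470.1 to 559.9 CPM in the other P4M clones. Psmb9 was at 5.41 CPM in the same clone, with 0.682 to 1.11 CPM in the others. Tapbp was at 116 CPM in P28 cKO replicate 2, with 177 to 185 CPM in the others.

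The change against Fgfr3-WT differed between the cKO groups for 3 named genes that are not members, by the edgeR test of P4M against P28. H2-T10, a class I-like chain, changed by -4.76 in P28 and -2.35 in P4M cKO clones, a difference of 2.41 (adjusted p = 0.0273), which lost the call without P4M replicate 3 (1.45, adjusted p = 0.0831), without P28 replicate 1 (0.0632) or 3 (0.0570), without Fgfr3-WT replicate 1 and P4M replicate 3 together (1.47, 0.0631) and by limma on TPM (0.65, 0.201). Jak2 changed by -0.05 and 1.14, a difference of 1.19 (adjusted p = 0.0157), which lost the call without P4M replicate 2 (1.01, adjusted p = 0.0525). Mrps18b, a mitochondrial ribosomal gene of the H2 region, changed by 0.50 and 0.97, a difference of 0.47 (adjusted p = 0.0283), which lost the call without P28 replicate 1, 3 or 4 or any 1 P4M clone (adjusted p of 0.0546 to 0.0703), without scaling (0.0625) and by limma on TPM (0.23, 0.229).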

How the results depend on the processing

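Number of members called. Percentages in brackets are the shares of all genes called under the same setting. In P28 cKO against Fgfr3-WT the 2 calls (38.9%) became 1 without a filter (22.3%) and 1 to 3 when single clones were left out (33.6 to 41.7%). In P4M cKO against Fgfr3-WT the 2 calls (45.9%) became 1 with at least 10 counts in every clone (48.5%), where Psmb8 and Psmb9 were not tested. They became 1 without a filter (26.7%) and 1 when a log2 fold change of 1 or more in size was also required (29.7%). Without single clones they were 0 to 3 (38.3 to 48.6%). Between P4M and P28 the 0 calls (7.22%) became 1 with DESeq2 (15.0%), 2 with limma on TPM (9.04%) and 1 with only the groups compared (18.3%). Without single clones they were 0 to 1 (2.70 to 12.3%). Over both cKO groups the 1 call (48.8%) became 3 with DESeq2 (51.3%) and 3 with limma on TPM (47.1%). It became 3 without Fgfr3-WT replicate 1 and P4M replicate 3 (49.4%), and 1 to 2 without single clones (44.1 to 50.3%). The cause of these shifts was not tested.

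Directions that turned were in members that did not pass the test. In P28 cKO against Fgfr3-WT, limma on TPM gave 0.33 for H2-K1, 0.41 for B2m and 0.29 for Tapbp; Tapbp was 0.07 without scaling. Without Fgfr3-WT replicate 2, B2m was 0.06 and Tapbp 0.08, and Tapbp was 0.11 without Fgfr3-WT replicate 4 and 0.04 without P28 replicate 2. In P4M cKO against Fgfr3-WT, without Fgfr3-WT replicate 1 and P4M replicate 3, H2-D1 was -0.01, B2m -0.09 and Psmb9 -1.06, and Psmb9 was -0.81 without P4M replicate 3 alone. Over both cKO groups H2-K1 was -0.17 and B2m -0.31 without those 2 clones, and B2m was -0.05 without Fgfr3-WT replicate 1 and -0.01 without P4M replicate 3. Over the fits without single clones, B2m in P28 cKO spanned -0.52 to 0.06, Tapbp in P28 cKO -0.26 to 0.11, Psmb9 in P4M cKO -0.81 to 0.76 and B2m over both groups -0.05 to 0.52. TPM moved the median of all genes from -0.02 to 0.20 in P28 cKO against Fgfr3-WT, with 72.6% of calls higher beside 49.4%, and from -0.05 to 0.13 over both cKO groups (64.3% beside 47.4%). Between P4M and P28 it moved from -0.01 to -0.14 (23.9% beside 46.3%; 33.2% without scaling). In that comparison all genes called rose from 1254 to 2607 with DESeq2 and to 3051 with only the groups compared. Refits of the 40 results on single members, most of them not called in the main fit, were counted together. Call status and direction were the same in 812, a call was gained in 22 and lost in 22, and 16 turned direction. All losses fell on Tap1 in P28 cKO and on Tapbp and Psmb8 in P4M cKO, each against Fgfr3-WT. No paired analysis was possible because the labels give no replicate numbers that groups share. Precision was limited by the spread between clones and, for Psmb8 and Psmb9, by low counts.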

Other observations

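Genes that T cells and NK cells read beside class I were also described, for both cKO groups against Fgfr3-WT, where 48.8% of all genes tested were called. Of 12 such ligands 9 were tested, and 0 were higher and 3 lower. H60b, a ligand of the activating receptor NKG2D, was at 12.8, 11.4, 10.6, 11.7 and 10.7 CPM in Fgfr3-WT clones and at 0 to 0.666 CPM in cKO clones, and was lower (-6.09, edgeR adjusted p = 1.30e-05). Cd80, a costimulatory ligand, was at 0.488 to 18.7 CPM and 0.0987 to 0.576 CPM (-4.49, adjusted p = 0.000256). Of 10 genes of MHC class II 4 were tested, and 0 were higher and 2 lower. H2-DMb1, which loads class II, was at 20.1 to 56.1 CPM in Fgfr3-WT and 0.550 to 4.43 CPM in cKO clones (-3.98, adjusted p = 1.26e-05). H2-DMb2 was at 0.606 to 7.90 CPM in Fgfr3-WT and at 0 in all 9 cKO clones. The Fgfr3-WT mean, 4.34 CPM, was 56.6-fold above the highest cKO floor of 3 counts per library (0.0768 CPM). Single Fgfr3-WT clones below that mean give a smaller bound. The summed haematopoietic markers were at 17.8 to 149 CPM in Fgfr3-WT and 4.04 to 22.7 CPM in cKO clones, and their part in these values was not tested. The mice were on a mixed background, and the H2 haplotype and strain of each clone are not given. Their part in these values was not tested either.

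Several genes outside the rule for names were looked at after their values were seen. H2-Q7 was at 65.3 CPM in P4M replicate 3 and at 0.0284 to 2.96 CPM in the other 13 clones. H2-Q6 was at 21 CPM in that clone and at 0 to 0.969 CPM in the others. The interferon-induced gene Ifit1 was at 3.79 CPM there, within the 0.358 to 77.9 CPM of Fgfr3-WT clones. Isg15 was at 5.82 CPM there, the highest value of the 14 clones, with 0.0651 to 5.38 CPM in Fgfr3-WT.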
